A study of Mus musculus with 48 samples.

Results

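The transcriptome of mouse chin skin was compared between late anagen, the last stage of hair growth, and catagen, the stage in which the follicle regresses. The comparison rests on all 5 libraries labelled chin late anagen (2) or chin catagen (3), out of 43 libraries in the table of skin domains and 48 in the series. All 5 came from whole skin of C57BL/6 mice, with no transgene or treatment named, and were made by the SMART-seq2 protocol from total RNA whose integrity number was above a stated minimum. The other libraries of the table cover 6 hair cycle stages of chin, ventral and dorsal skin. They were used as a reference for chin values and in fits over larger sets of libraries. Those of ventral and dorsal late anagen and catagen also gave the same labelled change in these domains. The labels give neither the age nor the sex of the mice, nor whether replicates came from separate animals. The p-values below therefore measure the spread between these libraries, part of which may be technical. Levels are FPKM, fragments per kilobase of transcript in a fixed amount of sequencing, so that levels of different genes can be compared per length. The 5 libraries held an estimated 12393750 to 25871860 fragments, with 15598 to 16142 genes at 0.5 FPKM or more.

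Hair follicles cycle through growth (anagen), regression (catagen) and rest (telogen). In anagen, matrix cells in the bulb divide and differentiate into the hair shaft, whose cells fill with hair keratins and then with cysteine-rich or glycine- and tyrosine-rich keratin-associated proteins that crosslink the keratin filaments. In catagen the matrix stops dividing, much of the lower follicle dies by apoptosis, pigment production ends, and the dermal papilla moves up to the stem cells of the bulge. WNT and hedgehog ligands are known to promote growth of the follicle, and BMP ligands to hold its stem cells at rest while also being needed for shaft differentiation.

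The identity of the 2 libraries labelled chin late anagen was checked first, because 2 of the genes with the largest differences were Hoxb6 and Hoxb7, which mark position along the trunk. Hoxb6 was at 7.13 and 6.16 FPKM in the libraries labelled chin late anagen and at 0.66, 0.54 and 1.05 FPKM in the chin catagen libraries. Hoxb7 was at 7.25 and 8.41 FPKM against 0.27, 0.65 and 0.36 FPKM. In the other 12 chin libraries, catagen included, Hoxb6 did not exceed 1.42 FPKM and Hoxb7 did not exceed 0.77 FPKM, whereas the 29 ventral and dorsal libraries ranged from 2.66 to 15.7 FPKM for Hoxb6 and from 3.06 to 18.2 FPKM for Hoxb7. Of 39 Hox genes in the table, 3 separated all ventral and dorsal libraries from these 12 chin libraries, namely Hoxa7, Hoxb6 and Hoxb7, and for all 3 both libraries labelled chin late anagen lay above the other chin libraries.

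**Figure D1:**
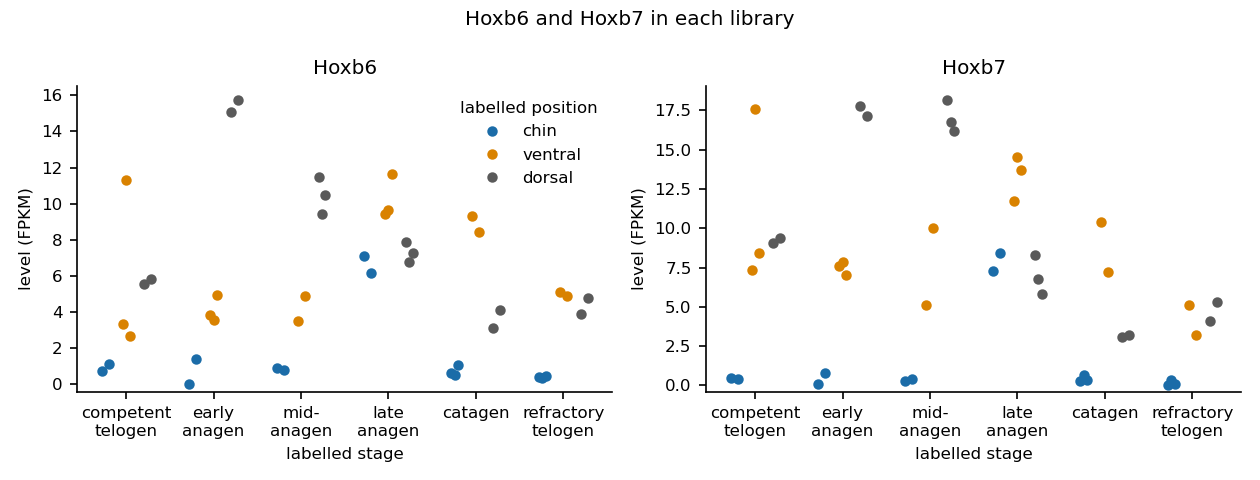
Level of Hoxb6 (left) and Hoxb7 (right) in FPKM in each of the 43 libraries, by labelled stage (horizontal axis) and labelled position (colour). The 2 chin libraries labelled late anagen lie among the ventral and dorsal libraries, and the other 12 chin libraries stay at or below 1.42 FPKM for Hoxb6 and 0.77 FPKM for Hoxb7.

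The whole transcriptome placed these libraries in the same way. The nearest libraries to both were the 2 labelled dorsal competent telogen, at root mean square distances of 0.388 to 0.420 on the log2(FPKM + 1) scale, closer than the 2 chin late anagen libraries were to each other (0.433). Between the libraries labelled chin late anagen and dorsal competent telogen, limma called 4 of 15891 genes at an adjusted p under 0.05, or 0.0252% of those tested, and 863 genes had an unadjusted p under 0.05. The dorsal competent telogen libraries did not have the hair gene levels of the chin libraries with that stage label. Their hair shaft keratins summed to 10182 and 10305 FPKM, against 2605 to 2812 FPKM in chin competent telogen, and their keratin-associated protein genes to 135276 and 136856 FPKM, against 6482 to 6905 FPKM. Fragment numbers per gene, estimated from FPKM, differed between the 2 late anagen libraries beyond counting noise, so neither was a copy of the other. The chin catagen libraries were nearest to one another (0.428 to 0.450), and next to libraries labelled dorsal mid-anagen. Hair shaft keratins summed to 9495 to 10171 FPKM in them, against 2568 to 4323 FPKM in chin refractory telogen. Genes of cell division summed to 751 to 767 FPKM, against 515 to 539 FPKM in the late anagen libraries and 223 to 260 FPKM in refractory telogen. The names late anagen and catagen are kept below as labels, and whether either group was at its labelled stage was not tested. Hair cycle stage and body position cannot be told apart in the difference between the late anagen and catagen libraries. The gene groups described below are therefore also given against the 2 libraries labelled chin mid-anagen, in which Hoxb6 was at 0.89 and 0.78 FPKM. That second comparison was added after the Hox values were seen. It shares its 3 catagen libraries with the first, and a difference between the 2 comparisons was not tested.

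Of 16560 genes tested between chin catagen and late anagen, 3958 passed limma at an adjusted p under 0.05 (23.9%), of which 2758 were higher in catagen (16.7% of the genes tested) and 1200 were lower (7.25%). By size, 205 genes were more than 2-fold higher and 188 more than 2-fold lower among those that passed. The median log2 fold change over all genes was 0.09. The balance of directions depended on how libraries were scaled: 69.7% of the calls were higher as deposited, 82.4% after rescaling to TPM, 43.5% with the median of ratios, which moved the median of all genes to -0.01, and 51.4% after quantile normalization. Under all 3 other scalings 2252 of the genes were called in the same direction, 1351 higher and 901 lower. Leaving out a late anagen library left 1 in its group, assumed to vary like the catagen group. The count of calls fell whichever library was left out, and was 2858 without catagen replicate 1. It was 947 without late anagen replicate 1, 1097 without late anagen replicate 2, 2167 without catagen replicate 2 and 2223 without catagen replicate 3.

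Against chin mid-anagen, limma called 1044 of 16701 genes (6.25%), with 642 higher in catagen (3.84%) and 402 lower (2.41%). These shares, and the 16.7% higher and 7.25% lower against late anagen, are the background for the list counts below. The 2 mid-anagen libraries stood further apart from each other than the late anagen libraries did, for example in skeletal muscle genes, whose summed level was 904 FPKM in one and 374 FPKM in the other.

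**Figure D2:**
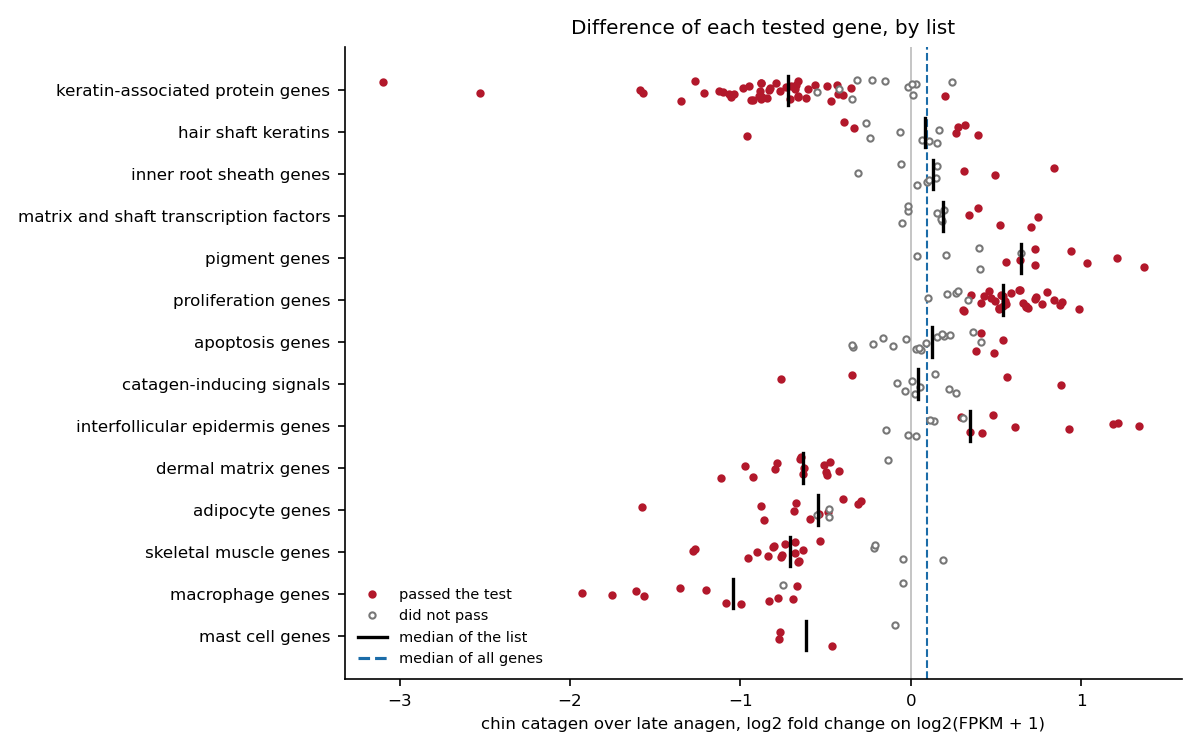
Log2 fold change of chin catagen over late anagen on log2(FPKM + 1) for each tested gene of 14 lists, with filled points for genes that passed limma at an adjusted p under 0.05, black bars for the median of a list and a dashed line for the median of all genes. Keratin-associated protein, dermal matrix, adipocyte, skeletal muscle and macrophage genes lie mostly on the lower side, with medians of -0.72, -0.63, -0.54, -0.71 and -1.04, and pigment and proliferation genes on the higher side, with medians of 0.65 and 0.54.

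Genes of the keratin-associated proteins formed the largest group of hair genes that differed. Of 56 tested, 44 were lower in catagen than in late anagen and 1 was higher, with a median log2 fold change of -0.72. Together the keratin-associated protein genes made up 13.2% and 13.1% of all FPKM in the late anagen libraries and 8.33%, 8.12% and 8.34% in the catagen libraries. In the mid-anagen libraries they made up 15.7% and 12.9%, and 25 of 56 genes were lower in catagen than in mid-anagen and 1 was higher, with a median of -0.79. Because the genes of this family are close copies of one another, a fragment could have been divided among them, and the value of a single gene is less certain than that of the family.

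The 100 bases before the start of 4 of these genes are printed here, since these genes span the range of the family on chromosome 16, from its largest decreases to the only member called higher. They are RefSeq sequences of GRCm38.p6, counted from the RefSeq start, 5′ to 3′ on the strand of the gene, with the TATA box letters TATAAA in capitals. They lie at chr16:89205761-89205860 on the plus strand for Krtap20-2, chr16:89083924-89084023 on the plus strand for Krtap6-3, chr16:89010760-89010859 on the minus strand for Krtap22-2 and chr16:88612280-88612379 on the minus strand for Krtap24-1.
Krtap20-2: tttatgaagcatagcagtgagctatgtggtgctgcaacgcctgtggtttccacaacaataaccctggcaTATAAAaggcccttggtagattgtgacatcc
Krtap6-3: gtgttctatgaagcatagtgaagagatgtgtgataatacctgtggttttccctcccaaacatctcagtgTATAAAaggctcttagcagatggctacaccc
Krtap22-2: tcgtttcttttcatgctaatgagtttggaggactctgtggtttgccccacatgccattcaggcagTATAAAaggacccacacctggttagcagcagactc
Krtap24-1: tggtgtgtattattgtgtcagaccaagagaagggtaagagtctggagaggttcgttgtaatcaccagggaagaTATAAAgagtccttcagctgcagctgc
The letters begin at position -31 from the start in Krtap20-2 and Krtap6-3, -35 in Krtap22-2 and -27 in Krtap24-1. Searched on both strands, TATAAA stood in this window in 40 of the 50 tested keratin-associated protein genes whose promoter was matched by symbol (80%), against 5.95% of 27025 promoters. It was found in 31 of 39 that were lower in catagen and in 9 of 11 that were not, so the letters were shared by the family whether or not a gene differed.

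Krtap20-2 (chr16:89205861-89206394), a glycine- and tyrosine-rich member, had the largest difference of the family. It was at 329.37 and 321.17 FPKM in the late anagen libraries and at 39.0, 38.0 and 34.5 FPKM in the catagen libraries. All catagen values were far below both late anagen values, with a log2 fold change of -3.10 ± 0.07 (SE; limma adjusted p = 0.000131). The direction was the opposite against mid-anagen, where the gene was at 8.47 and 11.1 FPKM and the log2 fold change was 1.83 (limma adjusted p = 0.00571). Krtap6-3 (chr16:89084015-89084534) was at 923 and 919 FPKM in late anagen and at 154, 157 and 166 FPKM in catagen, a log2 fold change of -2.53 ± 0.06 (SE; limma adjusted p = 0.000131). It was at 545 and 528 FPKM in mid-anagen, again above all catagen libraries, with a log2 fold change of -1.75. Krtap22-2, one of the most abundant members, was at 19248 and 20123 FPKM in late anagen, at 8211, 7811 and 8488 FPKM in catagen, and at 13798 and 16197 FPKM in mid-anagen, so that its catagen libraries were the lowest of the 3 stages.

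The family lies in clusters, and the clusters differed in how far their genes stood from no change. On chromosome 11, 21 of 23 tested genes were lower, with log2 fold changes between -0.99 and 0.03 and a median of -0.83. On chromosome 16, 18 of 24 were lower, with a wider range from -3.10 to 0.24 and a median of -0.96. There, all 7 genes of the Krtap19 family and all 4 of the Krtap6 family were lower, with medians of -1.06 and -1.40. The genes on chromosomes 10 (2 of 2 lower) and 7 (3 of 5 lower) had medians of -0.64 and -0.42, and neither of 2 genes on chromosome 1 passed. The 1 gene called higher, Krtap24-1, was at 133 and 140 FPKM in late anagen and at 159, 158 and 155 FPKM in catagen. Its groups did not overlap, but its log2 fold change of 0.20 (limma adjusted p = 0.049) was not called under either the median-of-ratios or the quantile scaling, and was lost whichever of the 5 libraries was left out. The most abundant member over the 5 libraries, Krtap7-1, was at 18334 and 18651 FPKM against 14294, 13362 and 13670 FPKM. Its log2 fold change of -0.43 turned to 0.078 after quantile normalization, and it passed without catagen replicate 1 but not without any of the other 4 libraries. The number called lower was 46 under median-of-ratios scaling and 42 under quantile normalization, and between 32 and 39 when 1 library was left out.

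**Figure D3:**
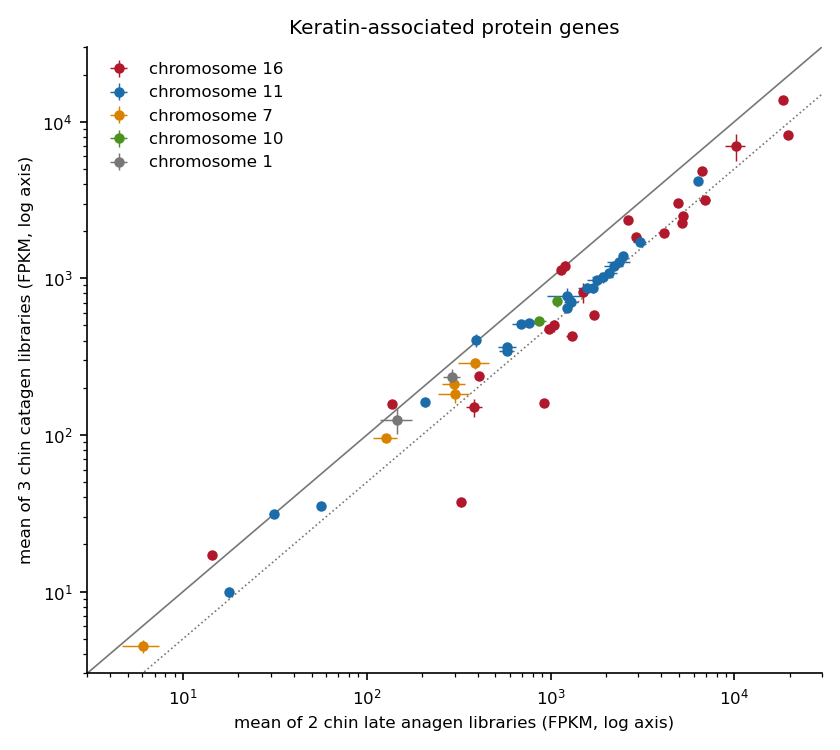
Mean level of each of the 56 tested keratin-associated protein genes in the 2 late anagen libraries (horizontal, FPKM, log axis) and the 3 catagen libraries (vertical, FPKM, log axis), coloured by chromosome, with bars for 1 SD. The solid line marks equal levels and the dotted line a 2-fold lower level in catagen. In 49 of the genes every catagen library lay below both late anagen libraries, which was so for 18.3% of all genes tested. Krtap20-2 and Krtap6-3 on chromosome 16 lie furthest below the lines.

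The genes of the hair shaft keratins did not follow the keratin-associated proteins. Of 14 tested, 4 were higher in catagen and 3 lower, with a median of 0.08. Krt33a, an acidic keratin of the shaft cortex, was at 2022 and 1965 FPKM in late anagen and at 2229, 1982 and 2058 FPKM in catagen, values that overlapped. Krt34, a keratin of the upper cortex, had the largest difference, from 969 and 921 FPKM in late anagen to 456, 500 and 498 FPKM in catagen. Its log2 fold change was -0.96 ± 0.07 (SE; limma adjusted p = 0.00222) and it was also higher in mid-anagen, at 1005 and 998 FPKM. The 4 that were higher had log2 fold changes of at most 0.39, and none of them passed with the median of ratios. The 14 genes summed to 10102 to 10777 FPKM in the late anagen libraries, 9495 to 10171 FPKM in the catagen libraries and 2568 to 4323 FPKM in the chin libraries of refractory telogen, the resting stage that follows. The mid-anagen libraries were above both, at 12042 and 18043 FPKM, and the catagen libraries overlapped with those of late anagen. Leaving out late anagen replicate 1, late anagen replicate 2, catagen replicate 2 or catagen replicate 3 left 1 shaft keratin called lower and none higher, while 1 was called higher and 2 lower without catagen replicate 1.

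Of 10 genes of the inner root sheath, the layer that moulds the shaft, 3 were higher and none lower, with a median of 0.13. Krt71, the most abundant of them, was at 7981 and 8335 FPKM in late anagen and at 11949, 11163 and 11405 FPKM in catagen, a log2 fold change of 0.50 that did not pass with the median of ratios. Krt27 and Krt25 overlapped between the groups. Krt74 had the largest difference, from 3.59 and 3.84 FPKM to 7.72, 7.41 and 7.21 FPKM, and it passed under every scaling and with each library left out in turn. The number higher was 3 without catagen replicate 1 and 1 without late anagen replicate 1, late anagen replicate 2, catagen replicate 2 or catagen replicate 3. Of 12 transcription factors of the matrix and shaft, 5 were higher and none lower. Msx2, which is needed for shaft differentiation, was at 68.4 and 65.4 FPKM in late anagen and at 93.2, 98.0 and 98.5 FPKM in catagen, and Dlx4 rose from 7.20 and 8.43 FPKM to 13.5, 14.2 and 13.5 FPKM. Gata3, a regulator of the inner root sheath, and Dlx3, a regulator of the shaft, had log2 fold changes of 0.16 and 0.18 that did not pass. Against mid-anagen, none of the 12 passed, while 5 of the 10 inner root sheath genes were higher and 3 of the 14 shaft keratins lower.

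Genes of cell division were higher in the libraries labelled catagen. Of 35 tested, 30 were higher and none lower, with a median log2 fold change of 0.54, and in 33 all catagen libraries lay above both late anagen libraries, which was so for 37.3% of all genes tested. Ccnb1, the cyclin of entry into mitosis, was at 18.2 and 21.8 FPKM in late anagen and at 41.0, 38.3 and 41.9 FPKM in catagen. It had the largest difference of the list, 0.99 ± 0.09 (SE; limma adjusted p = 0.00413). Cdk1, its partner kinase, went from 45.2 and 43.6 FPKM to 76.9, 65.7 and 74.2 FPKM. The replication clamp Pcna was at 50.2 and 53.3 FPKM against 65.4, 68.8 and 65.2 FPKM, a smaller difference of 0.36 that did not pass with the median of ratios. The number called was 24 under median-of-ratios scaling and 26 under quantile scaling. It was 12 without late anagen replicate 1, 12 without late anagen replicate 2, and 21 to 26 without a catagen library. Against mid-anagen, in which Ccnb1 was at 29.6 and 14.9 FPKM, 1 of the 35 passed, with a median of 0.25.

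Of 20 tested genes of apoptosis, 4 were higher in catagen and none lower, a share near the 16.7% of all genes called higher, with a median of 0.12, close to the 0.09 of all genes. Bax, a pore-forming protein of the mitochondrial pathway and the most abundant, was at 85.0 and 72.4 FPKM in late anagen and at 65.8, 76.1 and 77.2 FPKM in catagen, with overlapping values. Pmaip1, which encodes NOXA, had the largest difference of those that passed, from 2.87 and 2.91 FPKM to 4.89, 5.14 and 4.02 FPKM, but it did not pass with the median of ratios. None of the 20 passed without catagen replicate 2 or without either late anagen library. Against mid-anagen 1 of 20 was higher.

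Of 12 tested genes linked to the onset of catagen, 2 were higher, a share near the 16.7% of all genes called higher. Another 2 were lower, against 7.25% of all genes. Fgf5, whose loss prolongs anagen, was at 10.5 and 8.69 FPKM in late anagen and at 9.84, 10.2 and 9.15 FPKM in catagen, and the 2 groups overlapped. Hr, the hairless corepressor that is needed for orderly catagen, was at 39.5 and 39.9 FPKM in late anagen and at 22.7, 22.8 and 23.4 FPKM in catagen, a log2 fold change of -0.76 ± 0.06 (SE; limma adjusted p = 0.00214). In mid-anagen, however, Hr was at 13.99 and 22.62 FPKM, not above the catagen libraries. Il1a, an inflammatory cytokine, was higher, from 3.40 and 3.39 FPKM to 7.59, 7.24 and 6.47 FPKM. Trp53 was higher and Stat3 was lower, with log2 fold changes of 0.56 and -0.34, neither of which passed without late anagen replicate 1 or late anagen replicate 2. Tgfb1, Tgfb2, Ntf3, Ngfr, Il1b, Vdr and Prlr did not pass, and none of the 12 passed against mid-anagen.

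Pigment genes, which are made by the melanocytes of the bulb, were higher in catagen in 8 of 13 cases and lower in none, with a median log2 fold change of 0.65. Tyrp1, an enzyme of black melanin synthesis, was at 17.7 and 17.4 FPKM in late anagen and at 44.9, 46.8 and 49.2 FPKM in catagen. Its log2 fold change of 1.37 ± 0.06 (SE; limma adjusted p = 0.000717) was the largest of the list. Pmel, the matrix protein of the melanosome, went from 45.8 and 44.1 FPKM to 89.4, 91.2 and 99.1 FPKM, and Dct from 48.8 and 54.6 FPKM to 89.0, 83.6 and 86.6 FPKM. Mitf, the transcription factor that defines the melanocyte lineage, was at 9.66 and 10.7 FPKM against 9.88, 11.1 and 10.4 FPKM, with overlapping values. All 3 other scalings also gave at least 8 calls, and between 6 and 8 genes passed when 1 library was left out. None of the 13 passed against mid-anagen, in which Tyrp1 was at 37.63 and 21.03 FPKM. In refractory telogen the 13 genes summed to 33.4 to 37.0 FPKM, compared with 237 to 251 FPKM in late anagen and 415 to 432 FPKM in catagen.

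Signalling genes that passed differed in both directions and mostly by less than 2-fold. The counts of the signalling lists stand beside 16.7% of all genes called higher and 7.25% called lower. Among WNT ligands, which activate the pathway by binding Frizzled receptors, 2 of 13 tested were higher, a share near that of all genes. Wnt10a, expressed in the growing bulb, rose from 12.4 and 13.2 FPKM to 23.2, 21.4 and 25.5 FPKM, a log2 fold change of 0.82 ± 0.09 (SE; limma adjusted p = 0.00609). Wnt11 rose from 21.3 and 17.8 FPKM to 36.2, 30.4 and 30.3 FPKM, and did not pass without late anagen replicate 2. Among 11 WNT antagonists, 3 were higher and 2 lower. Wif1, a secreted inhibitor that binds WNT proteins, was at 11.5 and 10.8 FPKM in late anagen and at 23.3, 24.2 and 22.5 FPKM in catagen, a log2 fold change of 1.00 ± 0.07 (SE; limma adjusted p = 0.00186). Sfrp2 moved the other way, from 11.6 and 11.3 FPKM to 5.68, 5.73 and 5.13 FPKM. Both passed under every scaling and with each library left out in turn.

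Of 9 WNT target genes, 4 were higher and none lower. Znrf3, an E3 ligase that removes WNT receptors from the surface, was at 12.0 and 12.5 FPKM against 26.0, 25.8 and 24.8 FPKM, and Myc at 13.5 and 13.5 FPKM against 23.9, 23.5 and 21.3 FPKM, while the target Axin2, chosen after its values were seen, was at 4.04 and 3.65 FPKM against 2.86, 2.69 and 3.96 FPKM. None of Wif1, Znrf3 and Wnt10a passed against mid-anagen, with Wif1 at 28.2 and 17.6 FPKM, Znrf3 at 52.4 and 22.4 FPKM and Wnt10a at 34.7 and 23.0 FPKM in the mid-anagen libraries. One WNT ligand, 1 antagonist and 1 target gene passed against mid-anagen, each lower in catagen.

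Among BMP ligands, 2 of 7 were higher, Bmp4 and Bmp8a, with log2 fold changes of 0.37 and 0.41. Neither passed with the median of ratios. Bmp2, Bmp7, Bmp3, Bmp6 and Gdf10 did not pass. BMP antagonists split evenly, with 3 of 10 higher and 3 lower. Sostdc1, an inhibitor of BMP and WNT signals, was at 49.6 and 51.0 FPKM in late anagen and at 71.3, 67.5 and 64.8 FPKM in catagen, and the membrane decoy receptor Bambi was at 43.01 and 43.74 FPKM against 56.7, 56.1 and 56.8 FPKM. Chrdl1 went from 2.98 and 2.81 FPKM to 1.78, 1.13 and 0.88 FPKM, and Fstl1, the most abundant of the list, from 72.5 and 71.3 FPKM to 56.4, 56.2 and 51.8 FPKM. Of the 6 antagonists called, none passed without late anagen replicate 1 or without late anagen replicate 2. Of 6 genes that respond to BMP signals, Id2 and Id3 were higher. Id3 was at 163 and 148 FPKM against 214, 208 and 218 FPKM, with no overlap, and did not pass without late anagen replicate 2. Against mid-anagen, 1 BMP ligand was higher, 1 response gene was lower and no antagonist passed.

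In the hedgehog pathway, the ligand Shh was higher, at 1.35 and 1.76 FPKM in late anagen against 2.80, 2.99 and 2.56 FPKM in catagen. The groups did not overlap, but the call was lost whichever of the 5 libraries was left out. Gli1, the usual readout of the pathway, had a log2 fold change of 0.29 that did not pass. Neither Shh nor Gli1 passed against mid-anagen. Among FGF receptors, Fgfr2 and Fgfr3 were higher and Fgfrl1 lower of 4 tested, and none of 5 FGF ligands passed. Of 13 TGF-beta and activin pathway genes, 2 were higher and 3 lower. No gene of these FGF and TGF-beta lists passed against mid-anagen.

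Of 15 tested genes of the hair follicle stem cells, 2 were higher and 2 lower, a share near the 23.9% called over all genes, and the median was -0.03. Krt15, a keratin of basal and bulge cells, rose from 638 and 639 FPKM to 917, 873 and 830 FPKM, a log2 fold change of 0.45 (limma adjusted p = 0.0118), and Col17a1 from 21.8 and 21.7 FPKM to 28.1, 27.0 and 30.9 FPKM. Cd34 and Lgr5, markers of bulge and lower bulge cells, had log2 fold changes of -0.14 and -0.11 that did not pass. Tcf7l1 and Lrig1 were lower, by -0.38 and -0.32. None of these 4 calls was made without late anagen replicate 1 or without late anagen replicate 2. Of 15 dermal papilla genes, 2 were higher, a share near the 16.7% of all genes called higher. Rspo4, a WNT agonist of the papilla, went from 1.37 and 1.43 FPKM to 2.94, 2.54 and 3.47 FPKM, while the 3 most abundant of the list, Crabp1, Igf1 and Inhba, did not pass. Rspo4 did not pass without late anagen replicate 1 or late anagen replicate 2. Against mid-anagen none of the 15 stem cell genes passed (median -0.41), and 1 of the 15 dermal papilla genes was higher.

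The genes of cells around the follicle were lower in the catagen libraries in several lists. In whole skin, fewer cells of a type and less RNA per cell cannot be told apart. Of 15 dermal matrix genes, 14 were lower and none higher, with a median of -0.63. Col1a1, a chain of the main dermal collagen, was at 339 and 342 FPKM in late anagen and at 170, 153 and 149 FPKM in catagen, a log2 fold change of -1.11 ± 0.08 (SE; limma adjusted p = 0.00186). Sparc, a matrix glycoprotein, was at 632 and 614 FPKM against 431, 461 and 454 FPKM. In all 15 genes the catagen libraries lay below both late anagen libraries, which was so for 18.3% of all genes tested. The number called was 6 without late anagen replicate 1 and 5 without late anagen replicate 2. Against mid-anagen the list had 1 gene higher and 1 lower and a median of 0.11. Col1a1 was the exception among those named, at 257 and 221 FPKM in mid-anagen and lower in catagen (log2 fold change -0.60, limma adjusted p = 0.0498).

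Macrophage genes had the lowest median of all the lists tested, -1.04, with 12 of 14 lower and none higher. C1qb, a subunit of the first complement component that tissue macrophages make, was at 84.1 and 80.4 FPKM in late anagen and at 18.9, 22.9 and 20.9 FPKM in catagen. Its log2 fold change of -1.93 ± 0.09 (SE; limma adjusted p = 0.000734) left the groups far apart. Lyz2, a lysozyme of myeloid cells, went from 166 and 173 FPKM to 74.6, 72.7 and 71.5 FPKM. In mid-anagen C1qb was at 20.8 and 8.47 FPKM, near its level in catagen, and none of 13 macrophage genes passed. Of 4 tested mast cell genes, 3 were lower, Cma1, Mcpt4 and Tpsb2, all granule proteases. Against mid-anagen the direction turned, with 1 of the 4 higher in catagen, none lower and a median of 0.79. Tpsb2 was at 22.9 and 21.7 FPKM against 13.1, 11.9 and 13.1 FPKM.

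Skeletal muscle genes, whose source in these whole-skin libraries was not tested, were lower in 16 of 20 cases and higher in none, with a median of -0.71. Tnnc2, the troponin C of fast fibres, was at 1737 and 1796 FPKM in late anagen and at 941, 998 and 898 FPKM in catagen, and at 160 and 80.1 FPKM in mid-anagen. All 20 were higher in catagen than in mid-anagen, with a median of 2.91, so the direction of this list turned with the reference. Over the 14 chin libraries its summed level ran from 374 FPKM in mid-anagen to 28485 FPKM in refractory telogen. Of 14 adipocyte genes, 11 were lower and none higher, with a median of -0.54. Retn, the gene of resistin, had the largest difference, from 118 and 126 FPKM to 36.6, 40.6 and 44.1 FPKM, a log2 fold change of -1.58 ± 0.09 (SE; limma adjusted p = 0.00124). Adipoq, the gene of adiponectin, was at 185 and 181 FPKM against 98.2, 98.2 and 105 FPKM. The adipocyte count was 5 without late anagen replicate 1 and 7 without late anagen replicate 2. Against mid-anagen no adipocyte gene passed, with Adipoq at 74.4 and 44.3 FPKM. Of 6 red blood cell genes, 4 globin genes were lower, and the number was the same with each library left out in turn. Against mid-anagen none of the 6 passed and the median was 0.44, on the other side of 0.

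Genes of the epidermis between the follicles were higher in 9 of 15 cases and lower in none, with a median of 0.34. The basal keratins Krt14 and Krt5 overlapped between the groups, at 2347 and 2254 FPKM against 2131, 2338 and 2359 FPKM for Krt14. Among the 9 calls, 4 were gene entries with the symbol Flg, filaggrin of the cornified layer, whose repeats make the split of fragments among the entries uncertain. The count was 6 with the median of ratios, 4 without late anagen replicate 1, 4 without late anagen replicate 2 and 5 without catagen replicate 3. Against mid-anagen the median was -0.81, with 1 gene higher and 1 lower.

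**Figure D4:**
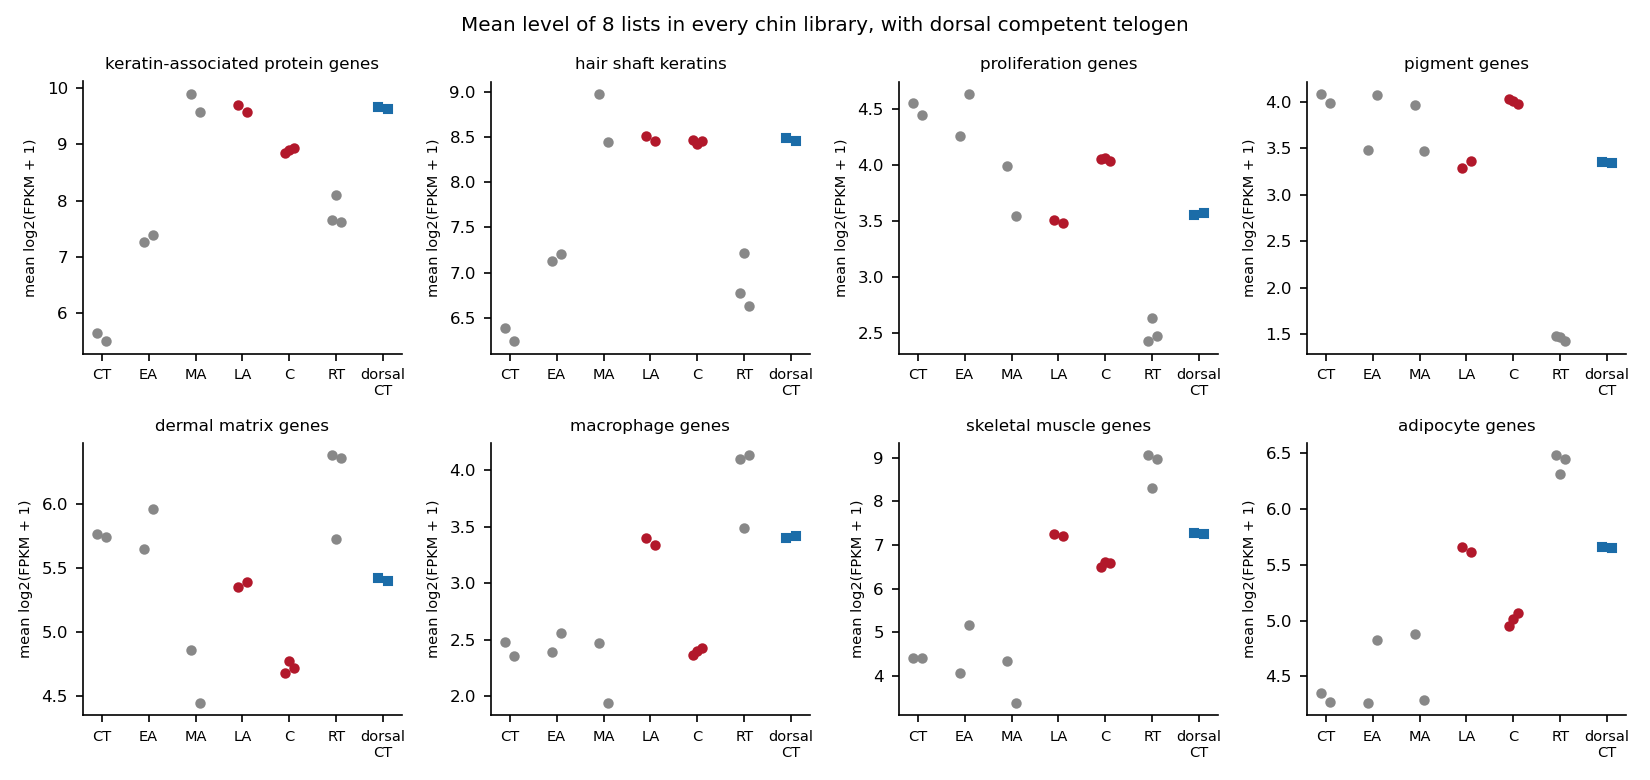
Mean log2(FPKM + 1) over the genes of 8 lists in each chin library by labelled stage (CT competent telogen, EA early anagen, MA mid-anagen, LA late anagen, C catagen, RT refractory telogen; late anagen and catagen in red) and in the 2 dorsal competent telogen libraries (blue squares). In all 8 lists the late anagen libraries lie beside the dorsal competent telogen libraries, for example at 3.34 and 3.40 against 3.40 and 3.42 for macrophage genes.

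The genes with the largest differences by the fixed rule, 10 in each direction, included several in which the 2 libraries labelled late anagen stood apart from every other chin library. Over all genes tested, the late anagen libraries lay outside the range of the 9 other chin libraries for 22.8%, and the catagen libraries for 15%. Among genes called lower these shares were 13.5% and 18.6%, so the named lower genes do not stand for all lower calls. Among genes called higher they were 39% and 21%. Mup7, one of the major urinary proteins that bind pheromones, was at 86.7 and 84.5 FPKM in late anagen and at 7.05, 9.08 and 8.06 FPKM in catagen, a log2 fold change of -3.26 ± 0.11 (SE; limma adjusted p = 0.000291). The other 9 chin libraries did not exceed 17.4 FPKM, whereas the 2 dorsal competent telogen libraries were at 91.8 and 94.9 FPKM. Mup11 was lower as well, and since Mup genes are near-identical copies their single values are uncertain. Sln, sarcolipin of muscle, was at 34.5 and 39.8 FPKM against 2.99, 2.55 and 1.89 FPKM, the largest decrease at -3.47 ± 0.16 (SE; limma adjusted p = 0.000698). Plac8 was at 22.5 and 16.8 FPKM against 2.88, 3.50 and 3.58 FPKM, and no other chin library exceeded 15.8 FPKM. Inmt, a methyltransferase, was at 7.34 and 6.33 FPKM against 0.58, 0.50 and 0.62 FPKM, but other chin libraries reached 7.14 FPKM.

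Dbp, a transcription factor whose level follows the circadian clock, was at 30.8 and 32.9 FPKM in late anagen and at 5.65, 6.27 and 8.13 FPKM in catagen, a log2 fold change of -2.11 ± 0.15 (SE; limma adjusted p = 0.00192). It was also lower than in mid-anagen, where it was at 31.4 and 34.1 FPKM and the log2 fold change was -2.15 (limma adjusted p = 0.00571).

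Of the 10 genes higher in catagen, 3 were pseudogenes that share sequence with their parent genes (Eif4a-ps4, Amd-ps3 and Mrgprc2-ps), and Eif4a-ps4 was listed at 0 in both late anagen libraries. Serpinb6d, a protease inhibitor, was at 0.36 and 0.20 FPKM in late anagen and at 8.15, 9.39 and 7.53 FPKM in catagen, and the other 9 chin libraries ranged from 17.5 to 289 FPKM. It was therefore low in the late anagen libraries rather than high in catagen, and it was lower in catagen than in mid-anagen (log2 fold change -1.20, limma adjusted p = 0.0257). Zfp488, a zinc finger gene, behaved differently. It was at 0.91 and 1.15 FPKM in late anagen and at 6.19, 5.62 and 6.02 FPKM in catagen, above all 9 other chin libraries, whose highest value was 3.78 FPKM. Hsd3b2, a steroid-converting enzyme, was at 1.31 and 1.32 FPKM against 5.96, 5.52 and 5.71 FPKM, also above the 4.77 FPKM that the other chin libraries reached. Both were higher than in mid-anagen, by 1.23 (limma adjusted p = 0.00957) and 0.93 (limma adjusted p = 0.0190) on the log2 scale. Rhox4a2, Serpina3h, Fam89a and Tyrp1 completed the 10.

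The change from late anagen to catagen in the chin was set beside the same labelled change in ventral skin (3 late anagen and 2 catagen libraries) and dorsal skin (3 and 2). One of the ventral catagen libraries, replicate 1, is labelled as ear skin in its location entry, against its title. In a limma fit over the 15 libraries, the change differed between chin and dorsal skin for 8638 of 18357 genes (47.1%) and between chin and ventral skin for 4622 (25.2%). The ventral contrast gave 4411 genes without ventral catagen replicate 1. These contrasts hold the 2 late anagen libraries described above on the chin side.

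The lists differed among the domains in direction. Keratin-associated protein genes had a median of -0.72 in the chin, -0.12 in dorsal and 0.25 in ventral skin, and the chin change was the more negative for 34 of 56 genes against dorsal skin (19.7% of all genes) and for 45 of 56 against ventral skin (7.54%). Skeletal muscle genes had medians of -0.71 in the chin, 2.54 in dorsal and -2.01 in ventral skin, and the difference from the chin passed for 20 of 20 genes against dorsal and 18 of 20 against ventral skin, with opposite signs (19.7% of all genes were more negative in the chin than in dorsal skin, and 17.6% more positive than in ventral skin). Proliferation genes were higher in catagen in all 3 domains by their medians, at 0.54 in the chin, 0.40 in dorsal and 0.25 in ventral skin. In dorsal skin 22 of 35 were higher and 7 lower (26.3% and 25.2% of all genes). In ventral skin 15 were higher and none lower (6.69% and 8.44%). The chin change was more positive for 16 of 35 and more negative for 5 against dorsal skin (27.3% and 19.7% of all genes). Against ventral skin it was more positive for 17 of 35 (17.6%) and more negative for none (7.54%). For hair shaft keratins the dorsal median was -0.76, with 11 of 14 lower (25.2% of all genes were lower in dorsal catagen and 26.3% higher), whereas the ventral median was 0.03, with 2 of 14 higher and none lower (6.69% and 8.44% of all genes). The chin change of these keratins was the more positive for 10 of 14 against dorsal skin, as it was for 27.3% of all genes. Macrophage genes had medians of -1.04 in the chin, 0.09 in dorsal and 0.19 in ventral skin, and dermal matrix genes of -0.63, 0.01 and -0.10. The chin change was more negative for 12 of 14 macrophage genes and 14 of 15 dermal matrix genes against dorsal skin, and for 12 of 14 and 12 of 15 against ventral skin.

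**Figure D5:**
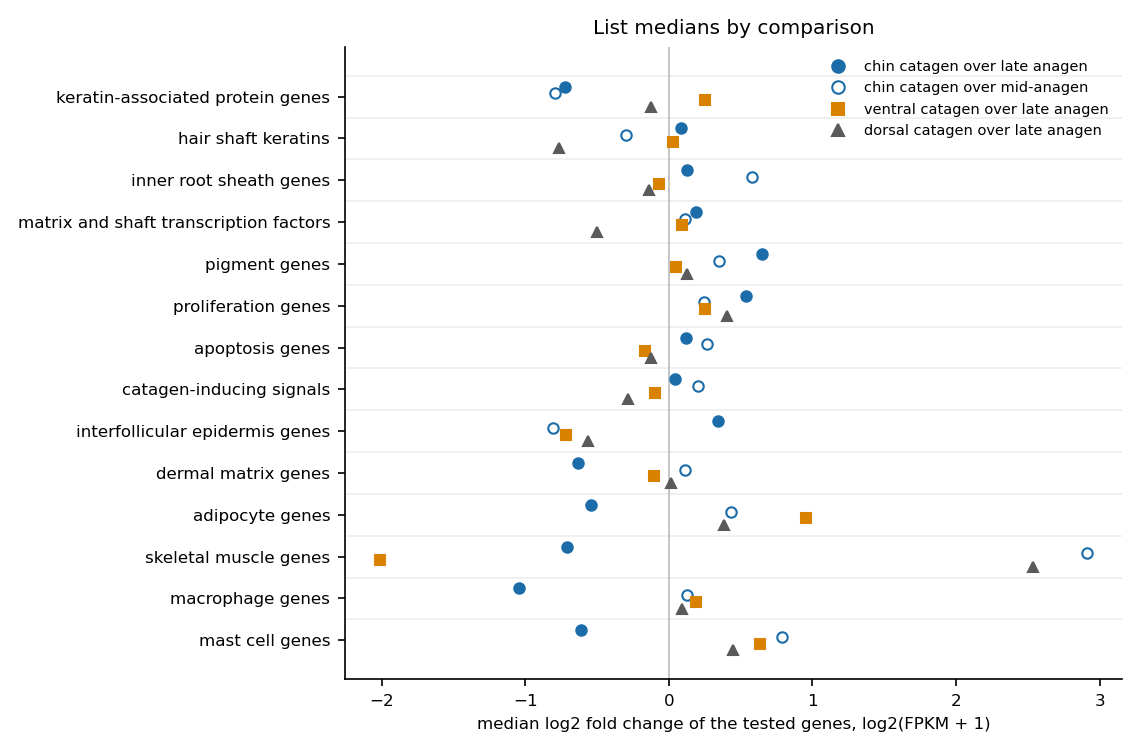
Median log2 fold change on log2(FPKM + 1) of the tested genes of 14 lists for chin catagen over late anagen (filled circles), chin catagen over mid-anagen (open circles), and catagen over late anagen in ventral (squares) and dorsal skin (triangles). Keratin-associated protein genes lie at -0.72 and -0.79 against both chin references, whereas skeletal muscle genes lie at -0.71 and 2.91.

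The study's lists of putative activators and inhibitors of hair growth were also counted. Of 223 tested activators, 75 were higher and 12 lower in chin catagen, with a median of 0.23, and of 118 inhibitors, 33 were higher and 6 lower, with a median of 0.15. Of all genes, 16.7% were higher and 7.25% lower, with a median of 0.09. With the median of ratios the counts were 50 higher and 20 lower for activators and 16 higher and 8 lower for inhibitors. Under that scaling, 1375 of all 16560 genes were higher and 1788 lower. Without late anagen replicate 1 they were 23 and 3 for activators and 5 and 1 for inhibitors. The study chose these lists by their time course over the hair cycle in a separate whole-skin microarray data set, and they were taken up here with earlier results of these data known. Against mid-anagen, 4 of 222 activators were higher and 5 lower, and 5 of 118 inhibitors were higher and 3 lower. Of all genes in that comparison, 3.84% were higher and 2.41% lower.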

How the data were processed

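Whole-skin RNA was sequenced by the authors after SMART-seq2 library preparation. The deposited values are FPKM per gene (46983 genes, 2 decimals), made by the authors with RSEM 1.2.25 on mm10 and GENCODE vM8, per the labels and the study's methods, which also state a correction for batch effects without naming the batches. A batch could therefore not be examined, and no columns lacked a sample. No read counts were used. Fragments per library were estimated from the steps of FPKM in genes with 1 transcript, and cover 12393750 to 25871860. Precision also depends on having 2 and 3 libraries a group.

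Genes that reached 0.5 FPKM in 2 or more libraries entered the test on log2(FPKM + 1), with a pseudocount of 1, by limma 3.58.1 (R 4.3.3) with a variance trend and Benjamini-Hochberg adjustment, using the 5 libraries alone. Fold changes on this scale understate the change of low genes. The difference between domains was tested as an interaction over 15 libraries. Named genes were the 10 with the largest change in each direction among genes that passed, did not overlap between groups, had a mean of at least 5 FPKM in the higher group and had an established symbol. To these were added the 3 most abundant members and the member with the largest change of each list, the members of the catagen, BMP ligand and antagonist, WNT ligand and antagonist, hedgehog and stem cell lists, and the 5 largest domain differences in each direction. Members and lists were chosen with earlier results of these data known. Alternatives were other scalings, filters and pseudocounts, no variance trend, larger sets of libraries, a replicate block, each library left out and a mid-anagen reference. The same code was tested on simulated data. Gene positions are from GENCODE vM21 on GRCm38 (46488 genes matched).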

Additional observations from a re-analysis of the deposited data

Results flagged for a closer look

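The change from late anagen to catagen differed between domains, by the limma interaction test, for 8638 genes between chin and dorsal skin and for 4622 genes between chin and ventral skin. The named differences that follow are log2 changes of the chin minus those of the other domain, and all of them contain the 2 libraries labelled chin late anagen whose Hox levels matched those of ventral and dorsal skin.

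Against dorsal skin, the largest positive differences were those of Krt80 (5.43), Cebpb (4.60), Nrarp (4.27), 1 entry of Flg (4.17) and Rnf39 (4.02). In each of them the dorsal change was larger in size than the chin change. The dorsal changes ran from -5.14 (Krt80) to -2.83 (Flg), and the chin changes from 0.28 (Krt80) to 1.34 (Flg). The chin change of Rnf39, 0.29, did not pass. Krt80 and Flg encode proteins of differentiating keratinocytes, and Flg entries share repeats. The largest negative differences were those of the muscle genes Sln (-6.42), Tcap (-4.73), Tnnc2 (-4.45), Tnnt1 (-4.39) and Myh4 (-4.30). Sln changed by -3.47 in the chin and by 2.96 in dorsal skin. The others changed by -1.67 to -0.90 in the chin and by 2.71 to 3.54 in dorsal skin.

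Against ventral skin, the largest positive differences were those of Serpinb7 (2.87), Mrgprb11-ps (2.84), Lipn (2.77), Gdpd2 (2.60) and Lor (2.57), the gene of loricrin in the cornified envelope. Their chin changes ran from 0.93 (Lor) to 1.30 (Lipn), and their ventral changes from -1.76 (Mrgprb11-ps) to -1.47 (Lipn). The largest negative differences were those of Mup7 (-4.43), Mup14 (-4.20), Mup18 (-4.04), Mup10 (-3.92) and Rps15a-ps7 (-3.85). Mup7 changed by -3.26 in the chin and by 1.17 in ventral skin. For Mup14, Mup18 and Mup10 the ventral change, 2.24 to 2.41, was larger in size than the chin change. Rps15a-ps7 changed by -0.50 in the chin, which did not pass, and by 3.35 in ventral skin. The Mup genes are near-identical copies, and their part in each other's values was not tested.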

How the results depend on the processing

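The 2758 genes higher in catagen became 1757 without a filter, 4333 as TPM, 1375 with the median of ratios, 1626 after quantile normalization, 1504 in a fit over 14 chin libraries and 642 against mid-anagen, and 608 to 1938 with 1 library left out. The 1200 lower genes became 764 without a filter, 536 over 14 chin libraries and 402 against mid-anagen, and 339 to 920 with 1 library left out. Genes whose change differed between chin and ventral skin numbered 2360 in a fit over 43 libraries. With 1 library left out they numbered 3539 to 4577, and those between chin and dorsal skin 7584 to 8806.

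Over 14 chin libraries the calls were 26 keratin-associated protein, 15 proliferation, 7 dermal matrix, 1 skeletal muscle, 3 adipocyte, 4 pigment and 3 epidermis genes. Over 43 libraries they were 8 skeletal muscle, 7 adipocyte and 4 epidermis genes. With 1 library left out, the calls ranged from 32 to 39 for keratin-associated proteins, 12 to 26 for proliferation, 5 to 13 for dermal matrix, 8 to 12 for macrophages, 12 to 16 for muscle, 5 to 9 for adipocytes, 6 to 8 for pigment and 4 to 9 for epidermis. Where 1 late anagen library remained, it was assumed to vary like the catagen group. Krtap7-1 turned from -0.43 to 0.078 after quantile normalization. Causes were not tested.

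Correlations of deviations from the group mean were -0.16 for both shared replicate numbers. The deviations of 2 late anagen libraries mirror each other, so these values cannot show whether replicate numbers pair the libraries. With the replicate block, 33 genes were higher and 18 lower, and the lists kept 2 keratin-associated protein, 1 macrophage, 1 adipocyte and 0 proliferation, dermal matrix, muscle, pigment and epidermis calls.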

Other observations

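Because Dbp, an output gene of the circadian clock, was among the largest decreases, other clock genes were chosen after its values were seen. Of these, 11 were among the genes tested, and only their levels are given. Per2 and Npas2 were chosen too but were not among the genes tested. Per3 was at 8.19 and 8.02 FPKM in the libraries labelled chin late anagen and at 3.54, 3.51 and 4.01 FPKM in chin catagen, and Nr1d1 at 15.9 and 13.2 FPKM against 8.35, 9.07 and 8.74 FPKM. Nr1d2, Tef, Hlf and Cry2 were also lower in every catagen library than in both late anagen libraries, which was so for 18.3% of all genes tested. Arntl was at 4.11 and 4.50 FPKM against 6.41, 6.97 and 5.90 FPKM, and Cry1 at 3.55 and 3.99 FPKM against 6.70, 6.58 and 5.73 FPKM. Per1 went the other way from Per3, at 3.14 and 3.70 FPKM against 6.36, 5.31 and 5.50 FPKM, and Clock was also higher in every catagen library. All catagen libraries lay above both late anagen libraries for 37.3% of all genes tested. Ciart overlapped between the groups. The hour at which skin was collected is not given in the labels.

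The 4 genes called when the chin late anagen libraries were set against those labelled dorsal competent telogen were Rpl23a-ps3, Gm14180, Gm26269 and Gm42959, all higher in the former.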
